A study of Homo sapiens with 2 samples.

Results

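XBP1 and the endoplasmic reticulum (ER) stress chaperones are described here as 10 genes, XBP1, ERN1, HSPA5, HSP90B1, DNAJB9, SDF2L1, HERPUD1, PDIA4, PDIA6 and CALR, which were taken by name, with no measured value in the rule. They are 10 of 16251 genes in the count matrix. When unfolded protein gathers in the ER, the sensor IRE1 (the product of ERN1) splices XBP1 mRNA, and the transcription factor made from the spliced mRNA turns on genes for folding and for the disposal of misfolded protein. The sensor ATF6 works on an overlapping set of genes, which includes the chaperone HSPA5 (BiP), and the kinase PERK slows translation and raises ATF4. XBP1 is also a well-known gene of the luminal mammary epithelium, where it is expressed without acute stress.

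The cells were of the line MDA-MB-453, an established line of human breast cancer that the labels call triple-negative with genotype WT. One culture was treated for 24 hours with IL1β and TNFα at 10 ng/ml, cytokines that activate NF-κB, and the other received water as vehicle for the same time. Poly(A) RNA of single cells was counted at transcript 3′ ends by droplet sequencing with unique molecular identifiers (UMIs, tags that count each captured molecule once). The study asked which cells of the line express and upregulate the tryptophan-catabolizing enzyme TDO2, and the XBP1 group was read from the same libraries.

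The cytokine-treated library held 3163 cells and 69592446 UMIs, and the vehicle library held 2822 cells and 58587996 UMIs, with medians of 21508 and 20249 UMIs per cell. Levels are given as CPM, the UMIs of a gene summed over the cells of a library per 1000000 UMIs of that library. Each condition was 1 library, so differences could not be checked against replicates and p-values are absent. The 95% intervals are exact and describe counting error, neither the spread between cultures nor that between cells. As a check of the cytokine label, NFKBIA, a direct NF-κB target, stood at 1069 CPM in the cytokine-treated library and 79.4 CPM in the vehicle library. ERBB2 stood at 208 CPM in cytokine-treated and 129 CPM in vehicle cells, and ESR1 and PGR had no row in the count matrix. All 8 luminal epithelial markers were measured, summing to 5585 and 3279 CPM. Markers of lymphoid cells and fibroblasts had no row, and those of myeloid and endothelial cells summed to at most 0.158 CPM. Of the 4 plasma cell markers, MZB1 alone had a row, at 143 CPM in cytokine-treated cells and 34.5 CPM in vehicle cells. MZB1 also encodes an ER-resident co-chaperone. The cell cycle calls deposited with the cells differed widely: 88.5% of cytokine-treated cells and 36.6% of vehicle cells were called G1, 10.2% and 45.1% were called S, and 1.26% and 18.3% were called G2M.

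Promoters of the members are shown first because the ER stress response element (ERSE) was defined in genes of this group. In RefSeq promoters of GRCh38.p14, taken from 250 bases before to 50 bases after each listed start, all 10 genes matched, with 13 promoters. The ERSE, written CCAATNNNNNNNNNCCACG, was searched on both strands and occurred in promoters of 5 of the 10 genes, against 27 of 35116 promoters in all (0.0769%). ERSE-II, written ATTGGNCCACG, occurred in 2 further members and in 19 of all promoters (0.0541%). The shorter UPRE core TGACGTGG occurred in no member and in 0.729% of all promoters. ERSE and ERSE-II share the letters CCACG and CCAAT or its complement, and no member held both. The lines give each match with 15 bases on either side, 5′ to 3′ on the strand of the gene, with the motif in capitals. Where the motif lay on the other strand, the capitals begin with CGTGG. Positions are GRCh38.p14.
XBP1, ERSE, chr22:28800588-28800636, minus strand: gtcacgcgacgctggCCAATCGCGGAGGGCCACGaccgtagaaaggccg
HSPA5, ERSE, chr9:125241376-125241424, minus strand: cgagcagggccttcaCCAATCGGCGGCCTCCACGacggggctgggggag
HSP90B1, first ERSE, chr12:103930201-103930249, plus strand: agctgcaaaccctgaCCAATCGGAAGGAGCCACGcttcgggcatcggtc
HSP90B1, second ERSE, chr12:103930306-103930354, plus strand: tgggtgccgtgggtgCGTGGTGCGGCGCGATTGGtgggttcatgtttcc
PDIA6, ERSE, chr2:10812838-10812886, minus strand: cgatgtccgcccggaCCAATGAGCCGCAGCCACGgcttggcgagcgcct
CALR, ERSE, chr19:12938369-12938417, plus strand: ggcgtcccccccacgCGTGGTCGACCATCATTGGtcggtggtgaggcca
SDF2L1, ERSE-II, chr22:21642099-21642139, plus strand: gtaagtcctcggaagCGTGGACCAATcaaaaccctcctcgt
HERPUD1, ERSE-II, chr16:56932010-56932050, plus strand: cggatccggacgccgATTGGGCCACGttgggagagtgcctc

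The matches began between 52 bases (XBP1) and 225 bases (CALR) upstream of the listed start. XBP1 and PDIA6 each have 2 listed promoters, and the element was in 1 of them. ERN1, DNAJB9 and PDIA4 held neither element in these windows, which says only that these letters are not there. A match is a description of the sequence and was not tested as a binding site.

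All 10 genes were higher in the cytokine-treated library, with every counting interval of the ratio above 1. Their summed level was 3259 CPM in cytokine-treated cells and 2114 CPM in vehicle cells, which is 0.326% and 0.211% of all UMIs (1.54-fold, log2 ratio 0.62, interval 0.61 to 0.63). The median log2 ratio of the 10 genes was 0.53, with a range of 0.21 to 1.11, beside a median of -0.20 over the 9192 genes that reached 5 CPM in at least 1 library and are called measured here. An interval above 1 was shared by 27.3% of measured genes. At least 1.5-fold higher levels were found for 4 of the 10 genes (XBP1, ERN1, DNAJB9 and SDF2L1), against 9.01% of measured genes, and at least 2-fold higher levels for DNAJB9 alone, against 4.29%. No member had an interval below 1, where 57.5% of measured genes did, and 19.9% and 7.48% of measured genes were at least 1.5-fold and 2-fold lower. With TMM or median-of-ratios factors in place of library totals, scaling moved the median of all measured genes up by 0.18 and 0.20 on the log2 scale, and the members with it. Under TMM 39.5% of measured genes had an interval above 1 and 40.8% below it, and all 10 members stayed above 1 under each of the 3 other scalings tried. The members at least 1.5-fold higher were then 8 with either set of factors, against 13.5% of measured genes with TMM and 14.0% with median-of-ratios factors. At least 2-fold higher were 3, against 5.76% and 5.90%. With totals without ribosomal and mitochondrial genes, 3 members were at least 1.5-fold higher, against 8.09% of measured genes. XBP1, at a log2 ratio of 0.55, was no longer among them.

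**Figure D1:**
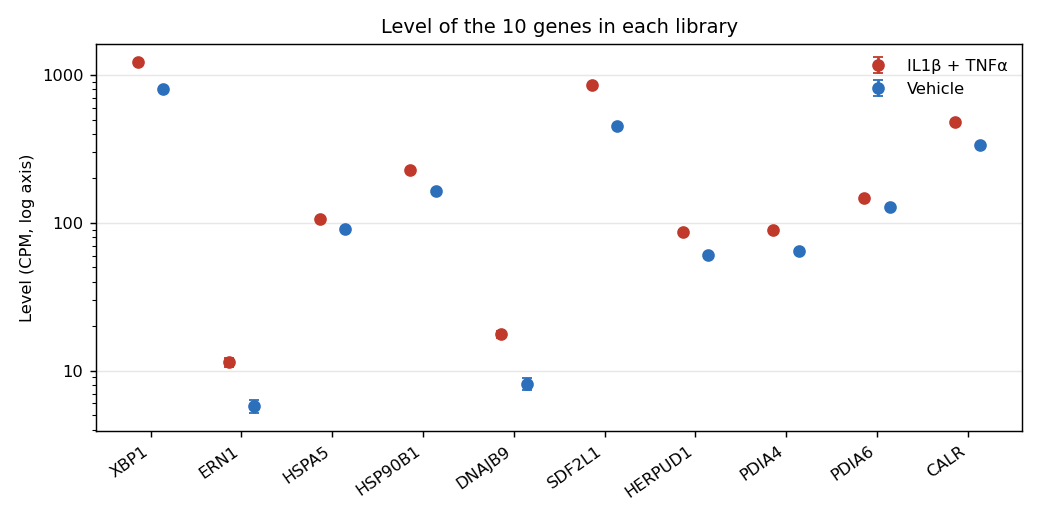
Level of each of the 10 genes in CPM on a log axis, with the IL1β + TNFα library in red at the left of each pair and the vehicle library in blue. Bars are exact 95% Poisson intervals for counting error, mostly smaller than the points, and every red point lies above its blue partner, from PDIA6 (148 against 128 CPM) to DNAJB9 (17.6 against 8.16 CPM).

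XBP1, the transcription factor, and ERN1, its activator, were both higher in cytokine-treated cells. XBP1 (ENSG00000100219, chromosome 22 from 28794555 to 28800597, minus strand, GRCh38) had 85226 UMIs in cytokine-treated cells, or 1225 CPM (interval 1216 to 1233), and 47363 UMIs in vehicle cells, or 808 CPM (801 to 816). XBP1 was thus 1.51-fold higher (log2 ratio 0.60, 0.58 to 0.62), at place 804 of the 9192 measured genes ordered by log2 ratio. Tags at the 3′ end do not show whether the XBP1 mRNA was spliced, so these are levels of both forms together. ERN1, the kinase and endonuclease IRE1 that splices it (chromosome 17 from 64039080 to 64130819, minus strand), had 795 UMIs or 11.4 CPM (10.6 to 12.2) in cytokine-treated cells. In vehicle cells ERN1 had 336 UMIs or 5.73 CPM (5.14 to 6.38). The ratio was 1.99-fold (log2 ratio 0.99, 0.81 to 1.18), at place 400.

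The chaperones of the ER lumen differed in how far apart the libraries stood. HSPA5, the HSP70 chaperone BiP (chromosome 9 from 125234853 to 125241382, minus strand), had 7429 UMIs or 107 CPM in cytokine-treated cells and 5337 UMIs or 91.1 CPM in vehicle cells. It was 1.17-fold higher (log2 ratio 0.23, 0.18 to 0.28), the second smallest ratio of the 10, at place 1887. HSP90B1, the HSP90 of the ER also called GRP94 (chromosome 12 from 103930107 to 103953931, plus strand), stood at 229 CPM in cytokine-treated and 163 CPM in vehicle cells, a 1.40-fold difference (log2 ratio 0.49, 0.45 to 0.53). CALR, calreticulin, a calcium-binding lectin chaperone for glycoproteins (chromosome 19 from 12938578 to 12944489, plus strand), stood at 484 and 336 CPM, 1.44-fold higher (log2 ratio 0.53, 0.50 to 0.55).

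DNAJB9 and SDF2L1, which act with BiP, showed larger ratios than BiP itself, and their counting intervals do not overlap that of HSPA5. ER co-chaperones outside the 10 genes, some named after their values were seen, lay on both sides of HSPA5. DNAJC10 (log2 ratio 0.93), SIL1 (0.83) and DNAJC3 (0.66) were above it, and DNAJB11 (0.08) and DNAJC1 (-0.45) below it. DNAJB9, the J-domain co-chaperone ERdj4 (chromosome 7 from 108569867 to 108574850, plus strand), had 1227 UMIs or 17.6 CPM (16.7 to 18.6) in cytokine-treated cells. In vehicle cells it had 478 UMIs or 8.16 CPM (7.44 to 8.92). DNAJB9 was 2.16-fold higher (log2 ratio 1.11, 0.96 to 1.27), at place 336 of measured genes and the largest ratio of the 10. SDF2L1, an ER-lumen protein that works with another J-domain co-chaperone of BiP (chromosome 22 from 21642302 to 21644299, plus strand), had 59925 UMIs or 861 CPM (854 to 868) in cytokine-treated cells. In vehicle cells SDF2L1 had 26342 UMIs or 449.6 CPM (444 to 455). This was a 1.92-fold difference (log2 ratio 0.94, 0.92 to 0.96), at place 436.

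The disulfide isomerases and the degradation factor had smaller ratios than DNAJB9 and SDF2L1. PDIA4 (ERp72; chromosome 7 from 149003062 to 149028662, minus strand) stood at 89.3 CPM in cytokine-treated and 64.1 CPM in vehicle cells, 1.39-fold higher (log2 ratio 0.48, 0.42 to 0.54). PDIA6 (P5; chromosome 2 from 10783391 to 10837977, minus strand) stood at 148 and 128 CPM, 1.16-fold higher (log2 ratio 0.21, 0.17 to 0.26), which was the smallest ratio of the 10. HERPUD1, a membrane protein of the complex that exports misfolded proteins for degradation (chromosome 16 from 56932142 to 56944864, plus strand), stood at 87.0 and 60.6 CPM, 1.44-fold higher (log2 ratio 0.52, 0.46 to 0.58). Some counts are uncertain in their assignment. Pseudogene copies named XBP1P1, HSPA5P1, HSP90B2P and HSP90B3P are annotated and can share reads with XBP1, HSPA5 and HSP90B1. On its own strand HERPUD1 overlaps 2 unnamed genes, HSP90B1 overlaps MIR3652, PDIA6 overlaps RNU7-176P and CALR overlaps MIR6515. HSP90B1, PDIA6, CALR and ERN1 overlap annotated genes on the other strand.

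Because the libraries differed in cell cycle calls, the members were compared within each phase. Among cells called G1 (2799 cytokine-treated and 1032 vehicle cells), all 10 genes again had intervals above 1, against 25.3% of the 9005 genes measured there. The median log2 ratio of the members in G1 was 0.55 beside -0.16 over all measured genes. Of the 10 genes, 5 reached a 1.5-fold higher level (9.39% of genes) and 2 a 2-fold higher level (4.44%). SDF2L1 showed the largest ratio in G1, 863 CPM in cytokine-treated and 388 CPM in vehicle cells (2.22-fold, log2 ratio 1.15, 1.12 to 1.19), followed by DNAJB9 at 18.5 and 8.73 CPM (2.12-fold). XBP1 had the smallest, 1255 CPM in cytokine-treated and 1060.5 CPM in vehicle cells (1.18-fold, log2 ratio 0.24, 0.22 to 0.26). The median depth of these G1 cells was 21408 UMIs in the cytokine-treated and 18486 UMIs in the vehicle library.

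Cells called S (324 cytokine-treated and 1273 vehicle cells) gave a different picture for HSPA5 and PDIA6. There 7 members had an interval above 1, against 16.1% of the 9168 genes measured, and 2 had an interval below 1, against 37%. The 2 lower genes were HSPA5 and PDIA6. HSPA5 stood at 53.7 CPM (48.4 to 59.3) in cytokine-treated S cells and 96.0 CPM (92.3 to 99.7) in vehicle S cells (0.559-fold, log2 ratio -0.84, -0.997 to -0.68). PDIA6 stood at 124 CPM in cytokine-treated and 136 CPM in vehicle S cells (log2 ratio -0.14, -0.24 to -0.03). HERPUD1, at 62.9 and 58.3 CPM, had an interval that spanned 1. XBP1 (1012 and 686 CPM, 1.47-fold), ERN1 (8.04 and 3.69 CPM, 2.18-fold) and SDF2L1 (862 and 513 CPM, 1.68-fold) were higher in cytokine-treated S cells. So were DNAJB9 (log2 ratio 0.46), PDIA4 (0.28), CALR (0.24) and HSP90B1 (0.12), each with an interval above 1. The G2M group held only 40 cytokine-treated cells, with a median log2 ratio of 0.36 over the 10 genes. Whether ratios differed between phases beyond the spread between cultures was not tested.

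**Figure D2:**
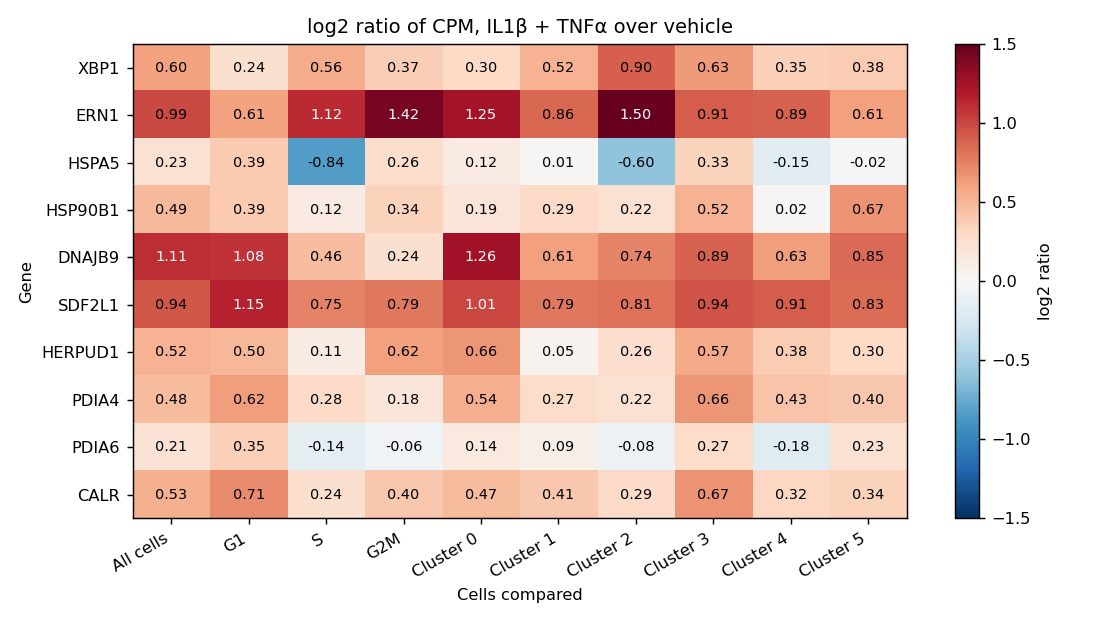
log2 ratio of CPM, IL1β + TNFα over vehicle, for the 10 genes (rows) in all cells, in each deposited phase call and in each deposited cluster (columns). Red is higher and blue lower in cytokine-treated cells, and HSPA5 is the darkest blue, at -0.84 in S cells and -0.60 in cluster 2.

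Levels also differed between phases of the same library, and not in the same way in both. In vehicle cells XBP1 stood at 1060.5 CPM in G1, 686 CPM in S and 656 CPM in G2M. S cells thus had 0.647 times and G2M cells 0.619 times the G1 level. ERN1 stood at 7.68, 3.69 and 7.23 CPM in the same order, so S cells had 0.481 times the G1 level. Most folding genes of vehicle cells ran the other way. Their S over G1 ratios were 1.32 for SDF2L1, 1.23 for CALR, 1.15 for PDIA6, 1.13 for PDIA4 and 1.11 for HSPA5, all with intervals above 1. HSP90B1 (0.839) and HERPUD1 (0.917) were lower in S, and DNAJB9 (0.935) had an interval that spanned 1. In cytokine-treated cells S over G1 was 0.475 for HSPA5 (log2 ratio -1.07, -1.23 to -0.93), 0.806 for XBP1 and 0.999 for SDF2L1. Of the 10 genes, 9 had an interval below 1 in that comparison, and SDF2L1 had one that spanned 1. The shares of all measured genes above or below 1 in S over G1 were not computed in either library. These counts therefore do not set the members apart from other genes. When the cytokine-treated phases were weighted to the vehicle make-up, a weighting added after the data had been seen, the ratio fell to 1.32 for XBP1 and 1.62 for DNAJB9, and stood at 1.85 for SDF2L1 and 1.998 for ERN1. HSPA5 turned to 0.920 and PDIA6 stood at 1.04. The phase calls rest on cell cycle genes, and MKI67 stood at 11.7 CPM in the cytokine-treated and 134 CPM in the vehicle library.

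**Figure D3:**
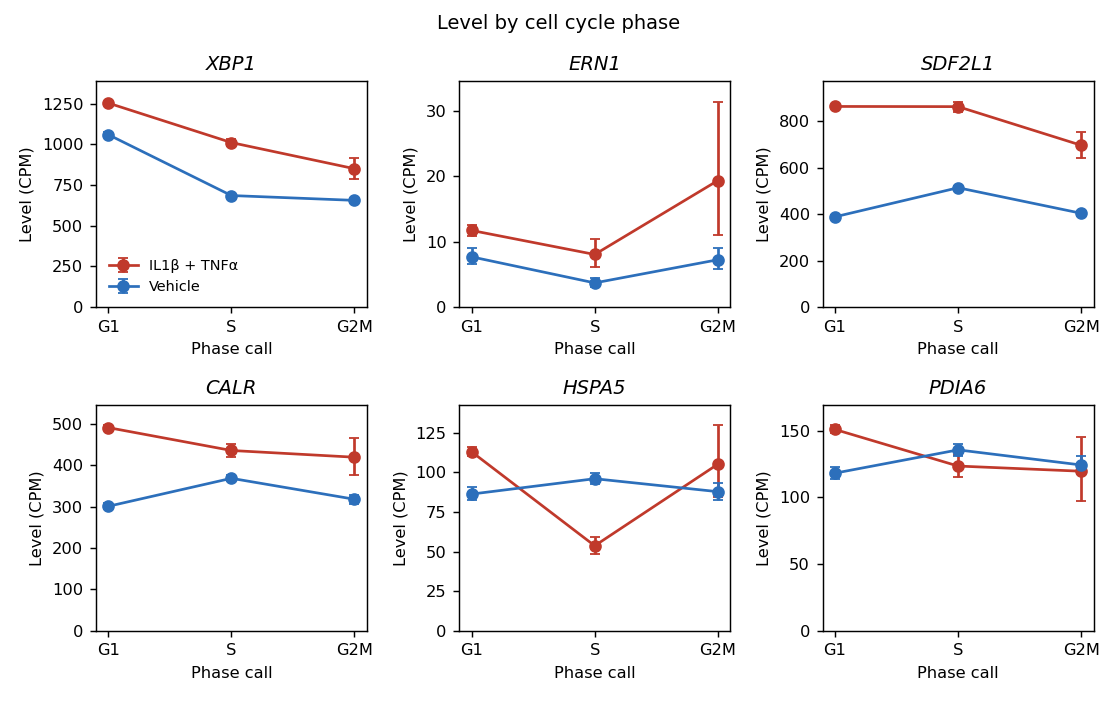
Level in CPM on a linear axis from 0 for 6 of the genes by phase call, with the IL1β + TNFα library in red and the vehicle library in blue. Bars are exact 95% Poisson intervals, wide for the 40 cytokine-treated G2M cells. XBP1 and SDF2L1 are higher in red in each phase, and HSPA5 crosses over in S cells, at 53.7 against 96.0 CPM.

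The authors' 6 clusters held cells of both libraries, and the members may have entered the clustering, so differences between clusters are a description. The median log2 ratio of the 10 genes was above the median of all measured genes in each cluster, at 0.51, 0.35, 0.27, 0.65, 0.37 and 0.39 for clusters 0 to 5, against medians of all genes between -0.24 and -0.08. SDF2L1 was the steadiest, with log2 ratios between 0.79 and 1.01. XBP1 had ratios between 0.30 and 0.90. HSPA5 ranged from -0.60 in cluster 2 (50.8 CPM in cytokine-treated and 77.2 CPM in vehicle cells) to 0.33 in cluster 3 (131.7 and 105 CPM). PDIA6 ranged from -0.18 in cluster 4 (89.6 and 101 CPM) to 0.27 in cluster 3. Of the 324 cytokine-treated S cells, 255 were in cluster 2, so the low HSPA5 of S cells and of cluster 2 comes largely from the same cells.

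XBP1 levels differed between clusters, over a wider range in vehicle cells. Its order in the vehicle library was cluster 0 (1107 CPM), 5 (1089 CPM), 4 (1025 CPM), 1 (789 CPM), 3 (742 CPM) and 2 (511 CPM), where clusters 0 and 5 were not apart beyond their intervals. In the cytokine-treated library the order was cluster 5 (1417 CPM), 0 (1362 CPM), 4 (1310.5 CPM), 3 (1151 CPM), 1 (1128 CPM) and 2 (953 CPM), where the intervals of clusters 5 and 0 and those of clusters 3 and 1 overlapped. Cluster 2 was lowest for XBP1 in both libraries and holds mostly cells called S or G2M. The lower XBP1 of vehicle S cells was also seen inside the other clusters with at least 50 cells of each call. In cluster 0 vehicle S cells stood at 973 CPM and G1 cells at 1279 CPM, in cluster 1 at 729 and 898 CPM, in cluster 3 at 676 and 826 CPM, and in cluster 4 at 956 and 1206 CPM. Among G1 cells alone, XBP1 was higher in cytokine-treated than in vehicle cells in each of the 5 clusters with enough cells, from 1364 against 1279 CPM in cluster 0 to 1149.8 against 826 CPM in cluster 3.

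For a view of single cells at equal depth, cells were thinned to 15000 UMIs apiece, leaving 3033 cytokine-treated and 2586 vehicle cells. The median cell then held 18 UMIs of XBP1 in the cytokine-treated library (10th to 90th percentile 8 to 31, highest 59) and 11 UMIs in the vehicle library (4 to 22, highest 52). XBP1 had no UMI in 0.198% of cytokine-treated and 0.309% of vehicle cells. Its variance was 4.49 and 4.43 times its mean, where Poisson counting alone gives equality. SDF2L1 had a median of 12 UMIs (6 to 21) in cytokine-treated and 6 UMIs (3 to 11) in vehicle cells, with a variance 2.53 and 1.61 times the mean. The 10th percentile of cytokine-treated cells thus equalled the median of vehicle cells, and the difference was seen across the whole distribution. CALR had medians of 7 and 5 UMIs, and HSP90B1 of 3 and 2 UMIs.

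The sparse members were compared by the share of thinned cells with a UMI. ERN1 had a UMI in 15.1% of cytokine-treated cells (exact interval 13.8 to 16.4%) and 8.005% of vehicle cells (6.99 to 9.12%), and without thinning in 21.6% and 10.8%. DNAJB9 had a UMI in 22.6% (21.1 to 24.1%) and 11.3% (10.1 to 12.5%), and without thinning in 30.3% and 14.9%. HSPA5 had a UMI in 72.7% (71.1 to 74.3%) and 69.7% (67.9 to 71.5%) of thinned cells. The material is 1 cell line, so no cell type that should lack these genes was at hand to give the level of free RNA, and its part in these shares was not tested.

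Across thinned cells the members had a higher median correlation with each other in the cytokine-treated library. Over the 45 pairs the median Pearson r of log-normalized counts was 0.088 in cytokine-treated cells (range -0.028 to 0.315) and 0.034 in vehicle cells (-0.023 to 0.157). Within the largest cluster of each library, cluster 0 for cytokine-treated and cluster 2 for vehicle cells, the medians were closer, at 0.053 and 0.035. These clusters are unlike in phase. Of the 1100 cytokine-treated cells of cluster 0, 1083 were called G1, and the vehicle cells of cluster 2 were 540 S and 200 G2M cells. In all, 21 cytokine-treated and 8 vehicle pairs exceeded 0.1, and 7 and 0 pairs exceeded 0.2. These r values are low. The median r of a member with all genes at 20 CPM or more lay between -0.002 (ERN1) and 0.022 (CALR) in cytokine-treated cells. In vehicle cells it lay between -0.0007 (ERN1) and 0.020 (SDF2L1). The share of all gene pairs above 0.1 or 0.2 was not computed. Thinning made total UMIs equal but not the counts of the members, which were higher in cytokine-treated cells. XBP1 averaged 18.5 UMIs in cytokine-treated and 12.2 in vehicle cells, and SDF2L1 12.9 and 6.72. Lower counts bring r closer to 0 through counting error, and the part of this in the difference between libraries was not tested. Cells of 1 library share its preparation, so the values are descriptions with no p. HSP90B1 with CALR had 0.31 in cytokine-treated cells and 0.14 in vehicle cells. XBP1 with SDF2L1 had 0.28 and 0.06, and among G1 cells alone 0.31 and 0.21. HSPA5 with HSP90B1 had 0.26 and 0.13, and PDIA6 with CALR 0.24 and 0.11. In cytokine-treated cells ERN1 had r values near 0 with every other member, between -0.028 and 0.017. It averaged 0.166 UMIs per thinned cell there, with no UMI in 84.9% of cells and a variance 1.02 times its mean. Counting error at such counts keeps r near 0, so these values cannot show whether ERN1 varied with the other members.

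**Figure D4:**
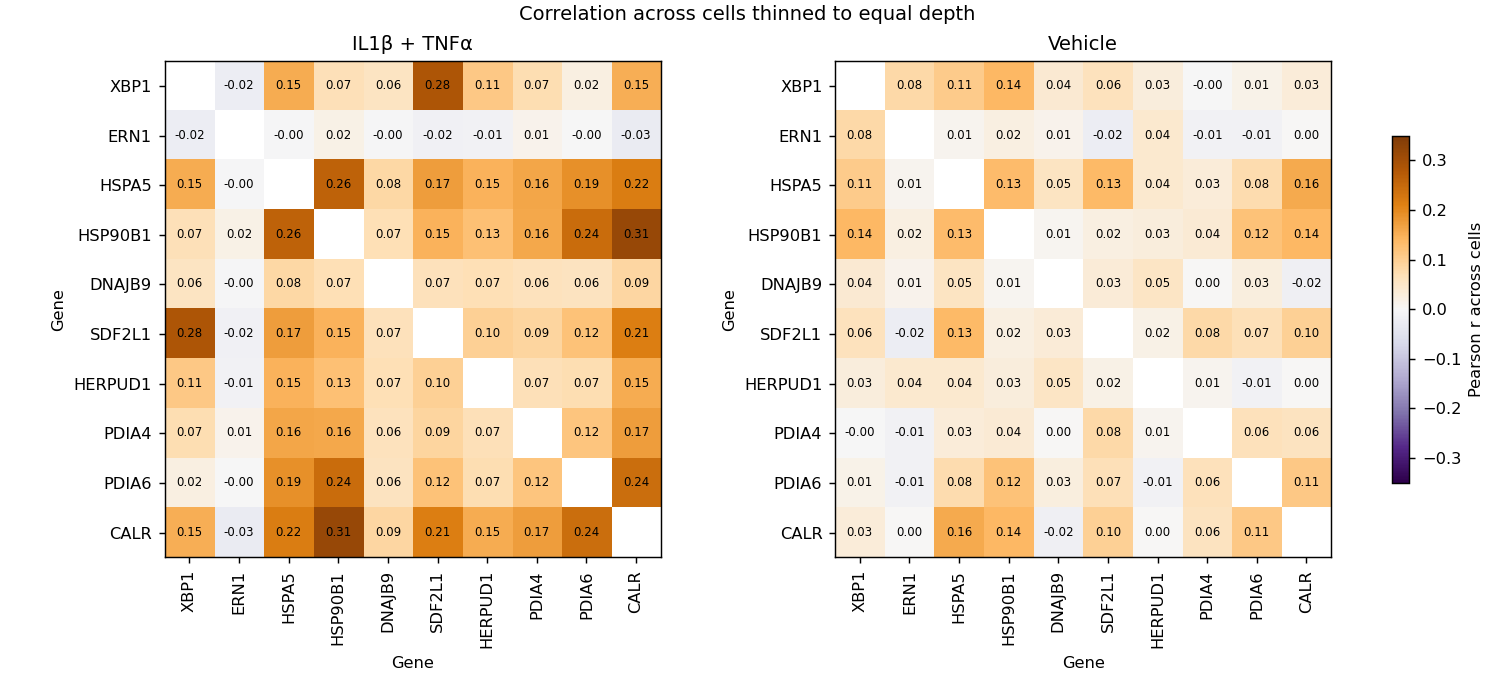
Pearson r across cells thinned to 15000 UMIs for each pair of the 10 genes, with 3033 IL1β + TNFα treated cells in the left panel and 2586 vehicle cells in the right. Orange is positive, and the left panel holds 7 pairs above 0.2 while the right panel holds none.

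Some members also moved with the mitochondrial share of a cell, and others hardly did. HSP90B1 had an r of -0.30 with the percent of mitochondrial UMIs in cytokine-treated cells and -0.18 in vehicle cells, CALR had -0.25 and -0.19, and PDIA6 -0.26 and -0.17. HSPA5 had -0.20 and -0.11, PDIA4 -0.13 and -0.05, SDF2L1 -0.06 and -0.07, and HERPUD1 -0.07 and -0.01. XBP1, ERN1 and DNAJB9 lay between -0.02 and 0.04 in both libraries. With the UMIs of a cell before thinning, XBP1 had an r of -0.09 in cytokine-treated and -0.21 in vehicle cells. CALR (0.17), PDIA6 (0.14) and HSP90B1 (0.10) were positive in cytokine-treated cells, and HSPA5 had -0.11 in vehicle cells. All other values lay between -0.07 and 0.05. The part of the mitochondrial share and of depth in the correlations between members was not tested.

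The gene most like SDF2L1 across cytokine-treated cells was XBP1, out of 4384 genes at 20 CPM or more, and the gene most like HERPUD1 was CALR. For XBP1 the most similar member was SDF2L1 at place 5 in cytokine-treated cells and HSP90B1 at place 101 of 4802 in vehicle cells. Close places occurred in vehicle cells too, with CALR at place 2 for HSPA5 and SDF2L1 at place 2 for PDIA4. For ERN1 in cytokine-treated cells, the most similar member was at place 777, a place limited by the few UMIs of ERN1. The genes outside the list with the highest r with XBP1 in cytokine-treated cells were FGFR4 (0.46), CLCA2 (0.33), DBI (0.32), SPDEF (0.29) and CRABP2 (0.28). In vehicle cells they were KCNMA1 (0.34), FGFR4 (0.30), RPL8 (0.29), SNHG25 (0.27) and RPL7 (0.27). FGFR4, a fibroblast growth factor receptor, was thus in both sets. At the other end, and named after their values were seen, TMSB4X, which binds actin monomers, had an r with XBP1 of -0.42 in cytokine-treated and -0.39 in vehicle cells, and the S phase genes HIST1H4C and RRM2 had -0.43 and -0.36 in vehicle cells. Genes with a high r with HSPA5 included PSMA6 (0.27), ENO1 (0.27), PPIB (0.27) and PDIA3 (0.26) in cytokine-treated cells, and ENO1 (0.16), PRDX1 (0.16), MANF (0.15), NQO1 (0.15) and PPIB (0.14) in vehicle cells. PPIB and MANF are themselves ER-lumen proteins, a prolyl isomerase and a stress-induced secreted factor.

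Other genes of the ER stress response were read from 8 lists of 100 genes, 90 of them measured. Of the 90, 51 had an interval above 1 and 27 below 1, against 27.3% and 57.5% of all measured genes. Of the same 90, 24 stood 1.5-fold or more above vehicle (9.01% of all measured genes) and 5 of them 2-fold or more (4.29%), and 6 stood 1.5-fold or more below it (19.9%) and 1 of them 2-fold or more (7.48%). Their median log2 ratio was 0.14, between that of the 10 genes (0.53) and that of all measured genes (-0.20). Among 10 measured sensors and transcription factors the median was 0.09. ATF6 (18.4 CPM in cytokine-treated and 18.1 CPM in vehicle cells) and ATF4 (186 and 183 CPM) had intervals that spanned 1. The highest in that list were the ER-bound factors CREB3L4 (247 and 111 CPM, log2 ratio 1.15), CREB3 (170.2 and 85.9 CPM, 0.99) and CREB3L1 (14.6 and 8.64 CPM, 0.76), and MBTPS1, the protease that cleaves ATF6, was at 19.2 and 27.0 CPM (-0.49).

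Folding and oxidation genes outside the 10 went in both directions, where 27.3% of all measured genes had an interval above 1 and 57.5% below it. Among 17 measured chaperones and co-chaperones, 12 had an interval above 1 and 2 below it (median log2 ratio 0.15), led by PPIB (1085 CPM in cytokine-treated and 504 CPM in vehicle cells, log2 ratio 1.11), FKBP11 (28.1 and 14.4 CPM, 0.96), DNAJC10 (77.7 and 40.8 CPM, 0.93) and SIL1, a nucleotide exchange factor of BiP (38.5 and 21.7 CPM, 0.83). HYOU1, a large ER chaperone named after its values were seen, was at 14.3 and 15.1 CPM with an interval that spanned 1. Among 15 measured isomerases and oxidases, 6 had an interval above 1 and 6 below it (median log2 ratio 0.05). ERO1A (68.9 and 35.5 CPM, 0.96) and PDIA3 (284 and 152 CPM, 0.90) were higher in cytokine-treated cells, and QSOX1 (7.06 and 15.4 CPM, -1.13) and TMX4 (16.7 and 31.2 CPM, -0.90) were lower. The 3 KDEL receptors, which return proteins to the ER, were all higher, KDELR3 at 9.63 and 5.80 CPM, KDELR2 at 246 and 157 CPM and KDELR1 at 141 and 104 CPM (log2 ratios 0.73, 0.65 and 0.44).

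Of 23 measured degradation genes, 11 had an interval above 1 and 9 below 1, against 27.3% and 57.5% of all measured genes (median log2 ratio -0.01). EDEM2 (22.3 CPM in cytokine-treated and 11.6 CPM in vehicle cells, log2 ratio 0.94), ERLEC1 (108 and 68.3 CPM, 0.67), UBXN4 (188 and 119 CPM, 0.66) and DERL2 (25.7 and 16.8 CPM, 0.61) had the largest ratios. Of 11 measured PERK and ATF4 targets, 7 were above 1 and 3 below 1 (median log2 ratio 0.27). CEBPB, which NF-κB activating cytokines are also known to raise, led them at 122 and 39.8 CPM (1.62), with DDIT4 at 103 and 54.5 CPM (0.92) and SESN2 at 9.33 and 5.87 CPM (0.67), while ATF5 was at 40.4 and 64.6 CPM (-0.68). DDIT3 (CHOP), named after its values were seen, stood at 11.4 and 9.46 CPM (0.27, 0.11 to 0.43).

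The last 2 lists complete the set. Of the 4 measured IRE1 partners and decay substrates, the decay substrates BLOC1S1 (123 CPM in cytokine-treated and 196 CPM in vehicle cells, log2 ratio -0.67) and HGSNAT (12.04 and 8.12 CPM, 0.57) went in opposite directions. RTCB, the ligase that joins spliced XBP1 mRNA, was at 58.7 and 45.5 CPM (0.37), and TRAF2 at 14.2 and 17.4 CPM (-0.29). Of 7 calcium genes of the secretory pathway, 5 had an interval above 1 and 2 below it, against 27.3% and 57.5% of all measured genes (median log2 ratio 0.19). RCN1 (50.4 and 19.03 CPM, 1.41), NUCB2 (76.6 and 29.2 CPM, 1.39) and NUCB1 (34.6 and 25.5 CPM, 0.44) were among the higher ones, and the calcium pump ATP2A2 was among the lower (40.2 and 61.4 CPM, -0.61).

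**Figure D5:**
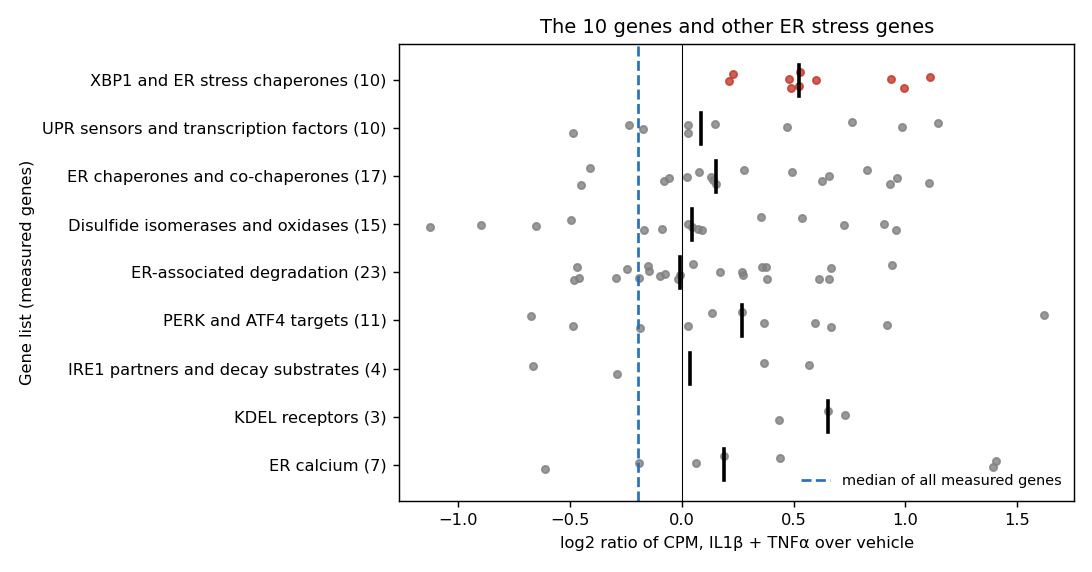
log2 ratio of CPM, IL1β + TNFα over vehicle, for the 10 genes (red, top row) and for 8 lists of other ER stress genes (grey), 1 point per measured gene, with the number of genes in brackets. Black bars are list medians, 0.53 for the 10 genes, and the dashed line is the median of all measured genes at -0.20.

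Other genes with the promoter elements went in both directions. Of the 25 measured genes with an ERSE or ERSE-II match in a listed promoter, 7 are members and 18 are not. Of these 18, 8 had an interval above 1 and 9 below 1, against 27.3% and 57.5% of all measured genes, with a median log2 ratio of -0.07 and a range of -3.15 to 0.65. Among the 10 genes themselves, the 3 with neither element include DNAJB9 and ERN1, the 2 largest ratios.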

How the data were processed

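Per the submitters' processing notes, reads were processed with Cell Ranger 3.1.0 (GRCh38) and Seurat 4.0.4, and the authors deposited unnormalized UMI counts for the cells they kept. Per the deposited cell table each cell also has a percent of mitochondrial UMIs, a cluster number and a phase call. How clusters were made is not given in the sources used here, and no doublet call was made.

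UMIs were summed per library and scaled by library totals. Intervals were exact Poisson for CPM, conditional binomial for ratios and Clopper-Pearson for shares. Precision is limited by the UMIs of a gene. A gene was measured if 1 or both libraries reached 5 CPM. Cells were thinned to 15000 UMIs, leaving out 130 cytokine-treated and 236 vehicle cells, and correlated as ln(1 + 10000 × fraction). Only 8 barcodes occurred in both libraries. Promoters came from RefSeq and positions from GENCODE.

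The text names the 10 members, up to 4 genes of each pathway list with the largest absolute log2 ratio, and the 5 genes most correlated with XBP1 and with HSPA5 in each library, beside label checks and markers. A result that this rule would include is not reported here. Members and lists were chosen with earlier results of these data known. Alternatives were TMM (edgeR 4.0.16) and median-of-ratios (DESeq2 1.42.0) factors, totals without ribosomal and mitochondrial genes, per-cell means, a mitochondrial limit of 10%, single phases, no shared barcodes, limits of 1 and 20 CPM or any UMI, and other ways to thin and correlate. The procedure was tested on simulated data. Protein features had been planned and were not analysed here.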

Additional observations from a re-analysis of the deposited data

Results flagged for a closer look

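Intervals on opposite sides of 0 in different phases or clusters were found for HSPA5 and PDIA6, and the difference itself was not tested in any of these cases. HSPA5 had a log2 ratio, cytokine-treated over vehicle, of -0.84 in S cells and 0.39 in G1 cells. PDIA6 had -0.14 in S cells and 0.35 in G1 cells. By cluster, HSPA5 had -0.60 in cluster 2 and 0.33 in cluster 3, and PDIA6 had -0.18 in cluster 4 and 0.27 in cluster 3. The S comparison rests on 387 HSPA5 UMIs in 324 cytokine-treated cells and 2624 UMIs in 1273 vehicle cells.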

How the results depend on the processing

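The median log2 ratio of the 10 genes, 0.53 by library totals, was 0.71 with TMM factors, 0.72 with median-of-ratios factors, 0.26 in S cells only, 0.36 in G2M cells only and 0.39 with cytokine-treated phases weighted to the vehicle make-up, an alternative chosen after seeing the data. The count at least 1.5-fold higher, 4, was 8 with TMM, 8 with median-of-ratios factors and 5 in G1 cells. It was 3 with totals without ribosomal and mitochondrial genes, with per-cell means, with the phase weighting and in G2M cells. In S cells it was 2, where 600 of the 9168 genes measured there were at least 1.5-fold higher. The count at least 2-fold higher, 1, was 3 with TMM, 3 with median-of-ratios factors, 2 in G1 cells (4.44% of the genes measured there) and 0 with the phase weighting. The share of all measured genes under the phase weighting was not computed. Of all measured genes, 828 were at least 1.5-fold higher, against 1258 with TMM, 1285 with median-of-ratios factors, and 1292, 484 and 1774 with limits of 1 CPM, 20 CPM or any UMI, and 394 were at least 2-fold higher, against 660, 221 and 1088 with those limits. With more genes tested the counts rise by construction, and the scalings shift all genes. For the other moves the cause was not tested. Ratios that turned below 0 were HSPA5 at -0.84 and PDIA6 at -0.14 in S cells, PDIA6 at -0.055 in G2M cells and HSPA5 at -0.12 with the phase weighting. Of 100 member values under 10 alternatives, 96 were above 0. The median correlation, 0.088 in cytokine-treated and 0.034 in vehicle cells, was 0.119 and 0.041 without thinning, 0.086 and 0.029 by rank, 0.083 and 0.049 in G1 cells, 0.060 and 0.026 at 7500 UMIs, and 0.053 and 0.035 in each library's largest cluster. With 1 library per condition, no value has an estimate of the spread between cultures, and the phase make-up moved with the treatment. No paired analysis was possible because each condition was 1 library.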
